A study of Homo sapiens with 27 samples.

Results

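The 9 genes described here act at the end of transcription and in making the poly(A) tail, and were examined in prostate cancer cells depleted of CPSF1. They were PCF11, CLP1, XRN2, RBBP6, PAPOLA, PAPOLG, PABPN1, SCAF4 and SCAF8, chosen by gene symbol, and all 9 of 9 were found among the 20268 genes of the coding sequence table and in the other 3 tables. Poly(A)-ClickSeq (PAC-seq), which sequences the 3′ ends of RNAs up to the start of the tail, had been run on 27 libraries. The cells were 3 human prostate cancer lines. LNCaP is androgen-sensitive, LNCaP95 was derived from LNCaP and grows without androgen, and 22Rv1 expresses androgen receptor variants. Each line was transduced with lentivirus carrying a control shRNA (CTRL sh) or an shRNA that targets CPSF1, of which there were 2, named CPSF1 sh1 and CPSF1 sh2. Every group had 3 libraries. All groups had been selected with puromycin, at 2 μg/mL in LNCaP and 22Rv1 and at 1 μg/mL in LNCaP95, then expanded and grown for 72 h in medium with 10% FBS, which was free of phenol red for LNCaP95. Each group was a selected and expanded population of infected cells, and the 3 libraries of a group were described as biological replicates.

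CPSF1 belongs to CPSF, the complex that binds the poly(A) signal near a cleavage site. PCF11 and CLP1 form cleavage factor II, which joins that machinery, and PCF11 also binds the C-terminal domain (CTD) of RNA polymerase II and helps to end transcription. XRN2 is the 5′ to 3′ exonuclease that degrades the RNA still attached to polymerase after cleavage. RBBP6 is the human relative of a yeast cleavage factor subunit that activates cleavage. PAPOLA and PAPOLG are poly(A) polymerases, and PABPN1 is the nuclear protein that coats the growing tail and sets its length. SCAF4 and SCAF8 are CTD-binding proteins known to restrain the early use of poly(A) sites within genes. The PCF11 gene itself is known to be regulated by premature polyadenylation in its introns, where a transcript that ends early cannot encode the full protein.

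Reads were counted in 4 kinds of region: 3′ UTRs, coding sequence (CDS), introns, and the 10 kb beyond the gene. The libraries held between 3452413 and 12425417 reads over the 4 tables. Values are given as CPM, the reads of a gene scaled to the size of its library in that table after TMM adjustment, so a change in one table is relative to the other genes of the same table. CPSF1 itself fell in its 3′ UTR in every line, with log2 fold changes of −1.19 in LNCaP, −1.05 in LNCaP95 and −0.73 in 22Rv1 (adjusted p = 8.31e-05, 0.000301 and 0.0164, quasi-likelihood test of edgeR). The labelled tissue was matched by its markers: 9 of 9 prostate luminal genes were above 2 CPM in every line. Among markers of other cells, KRT5, COL1A2, PTPRC and CD3E stayed at or below 1.11 CPM in every library. Others were higher: COL1A1 held 2.67 to 25.8 CPM, and VWF, TP63 and KRT14 reached 9.76, 4.93 and 3.37 CPM. The summed level of the luminal genes moved with knockdown in LNCaP, from 4863 to 4954 CPM in controls to 3521 to 3670 CPM, and in LNCaP95, from 6778 to 7149 CPM to 4196 to 4962 CPM. In 22Rv1 the ranges overlapped (2784 to 3058 and 2740 to 3081 CPM). Lists for other cell types were low, with summed levels of at most 4.93 CPM for 3 basal, 26.7 CPM for 6 fibroblast, 13.5 CPM for 3 leukocyte and 10.6 CPM for 2 endothelial genes. The endothelial genes were VWF and CDH5, since PECAM1, also listed, had no entry in the data. In LNCaP95 the leukocyte sum went from 3.48 to 6.11 CPM in controls to 8.13 to 13.5 CPM, of which CD68 made up to 12.5 CPM, and the fibroblast sum from 23.9 to 26.7 CPM to 14.3 to 21.7 CPM. In LNCaP the basal sum went from 1.73 to 2.08 CPM in controls to 2.68 to 4.78 CPM. The part of these shifts in the results was not tested. In bulk libraries such as these, fewer cells making a transcript and less of it per cell cannot be told apart.

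The sequences at the annotated ends of the 9 genes are given because the method aims to read RNA ends at a poly(A) tail. Such a tail is usually added shortly after a hexamer signal. The last 50 bases before the most distal end of the 3′ UTR in the deposited region table, its 300-base extension removed, were searched on the strand of the gene for AATAAA and, where it was absent, for ATTAAA. The first hexamer, AATAAA, was found for 8 of the 9 genes, against 59.4% of the 19524 genes searched, and a further 13.5% of genes held ATTAAA only. PCF11 was the exception: neither hexamer was present before its most distal end, at position 82898493 of chromosome 11. A transcript that the Gencode annotation ends in the first intron of PCF11, at position 82869921, does carry AATAAA, with 20 bases from the first base of the hexamer to the end. Both PCF11 windows are shown with those of XRN2, PABPN1 and SCAF8 in the hg19 (GRCh37) build, 5′ to 3′, with the hexamer in capitals. Gencode ends some of the genes elsewhere, among them SCAF8 and SCAF4, which it ends farther downstream. No match says only that these letters are absent from the window.
PCF11 distal end, chr11:82898464-82898493, plus strand: gttgacctaagaacagctgagtatgggtgc
PCF11 first-intron end, chr11:82869892-82869921, plus strand: aaaatttgtgAATAAAacatataaaatatg
XRN2 distal end, chr20:21370434-21370463, plus strand: aaaaaaAATAAAgttaaacttttaaaactc
PABPN1 distal end, chr14:23795359-23795388, plus strand: tttgaaAATAAAaattgtttggccttttgg
SCAF8 distal end, chr6:155155163-155155192, plus strand: ttagatgccAATAAAacttatttgtttgat

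To determine in which regions the reads of these genes ended, the reads of each gene were divided over the 4 regions. The 9 genes differed widely. Over the 27 libraries together, 95.5% of RBBP6 reads, 81.5% of XRN2 reads and 74.7% of PCF11 reads ended in the CDS, while the CDS table held 15.1% of the reads of all genes. The 3′ UTR held 99.9% of PABPN1 reads, 75.0% of PAPOLA reads and 74.2% of CLP1 reads, against 54.5% for all genes. For PABPN1, most bases of its other regions were shared with another gene, as given below, and its shares were not corrected for this. Introns held 54.5% of SCAF8, 47.5% of PAPOLG and 46.5% of SCAF4 reads, against 25.0% for all genes.

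**Figure D1:**
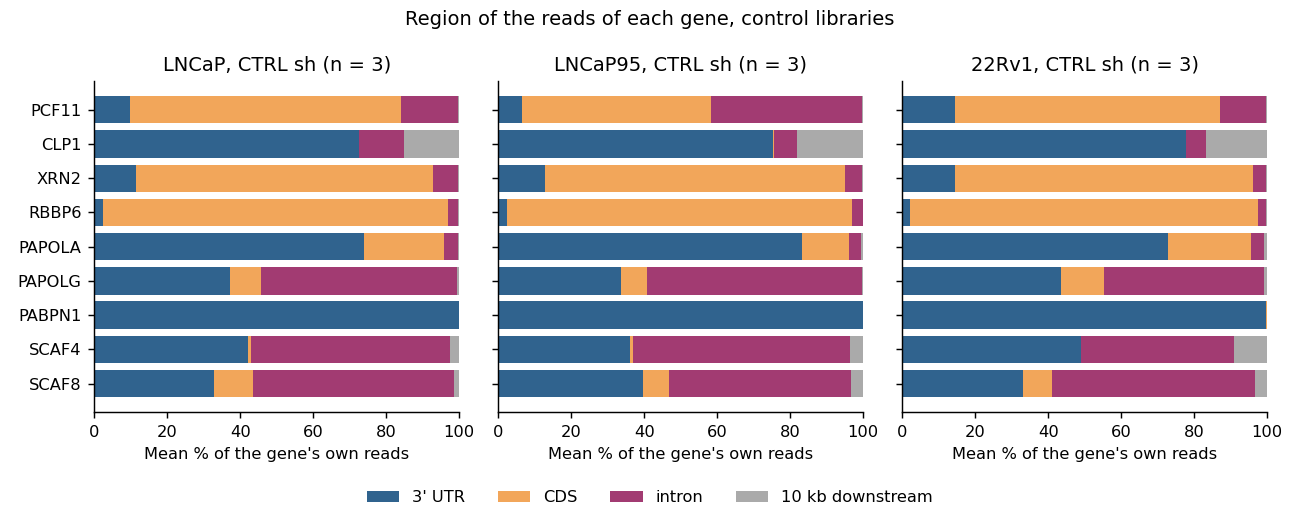
Stacked bars give the mean percentage of each gene's own reads that fell in the 3′ UTR, CDS, introns and 10 kb downstream region in the 3 CTRL sh libraries of each line. The intron share of PCF11 was 41.3% in LNCaP95, 15.7% in LNCaP and 12.6% in 22Rv1.

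A stretch of the transcript that is rich in A can itself be primed during library preparation, so the A content of the CDS was measured. A window of 20 bases with over 12 A on the transcript strand was counted as A-rich, the limit that the study's own site caller uses. RBBP6 held 191 such windows in 5427 bases of CDS, PCF11 held 31 in 5073 bases and XRN2 held 25 in 2850 bases. SCAF8 held 10, PAPOLA and PAPOLG 8 each, and CLP1, PABPN1 and SCAF4 held 0. At least 1 window was present in 34.4% of the 20232 genes searched, and 14 genes, RBBP6 included, held as many as RBBP6. Among all genes with 1000 or more reads, the median share of reads in the CDS was 0.0795% without an A-rich window (7080 genes), 3.70% with 1 to 20 windows (3980 genes) and 41.2% with more (1064 genes). Of the 9 genes, the 3 with over 20 windows were the 3 with most of their reads in the CDS, and the 3 with 0 windows had at most 0.498% of their reads there. For PABPN1, 1 of these, 61.3% of the CDS bases were shared with another gene on the same strand. A-rich windows were also present in the intron regions, with 224 for PCF11, 483 for PAPOLG, 175 for RBBP6 and 895 for SCAF8. The deposited counts hold no positions within a region, so the part of such windows in the CDS and intron reads was not tested. The window with the most A is shown for the 3 genes with most of their reads in the CDS and for SCAF4, which had 0.498% of its reads there, with each A in capitals.
RBBP6, 17 A, chr16:24581443-24581462, plus strand: AgAAAAAAgAAAAAgAAAAA
PCF11, 15 A, chr11:82876988-82877007, plus strand: AAAAAAtAAccAAgAAAgAA
XRN2, 15 A, chr20:21319699-21319718, plus strand: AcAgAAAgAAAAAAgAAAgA
SCAF4, 12 A, chr21:33057520-33057539, minus strand: AtAAAtgAAgAcActAcAAA

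**Figure D2:**
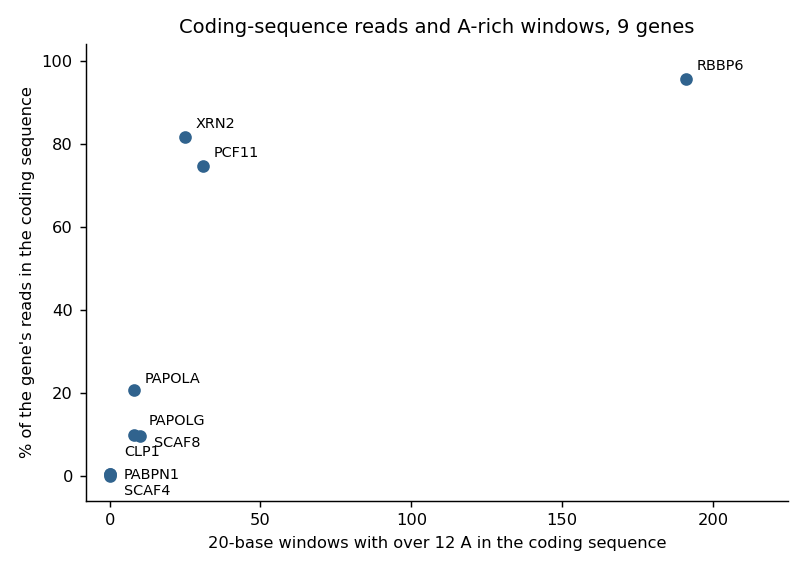
Each point is 1 of the 9 genes, with the number of A-rich 20-base windows in its CDS on the x axis and the percentage of its reads over the 27 libraries that fell in the CDS on the y axis. RBBP6, with 191 windows and 95.5%, lies at the upper right, and the 3 genes without a window lie near 0%.

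Some counts had more than 1 possible source. The intron and 10 kb regions of PABPN1 held 0 reads in all 27 libraries, and 99.8% and 91.8% of their bases were shared with BCL2L2-PABPN1, a readthrough gene on the same strand. Whether reads in shared bases were left out of the counts was not tested. The 0 counts are thus no sign that no RNA ended there. In the CDS and the 3′ UTR, 61.3% and 17.5% of the PABPN1 bases were shared with that gene. The 10 kb region of PCF11 runs into ANKRD42, that of CLP1 into ZDHHC5 and that of SCAF8 into TIAM2, all on the same strand, so reads there cannot be assigned to one gene. In Gencode, TIAM2 also overlaps the 3′ UTR, CDS and introns of SCAF8 on that strand, and lncRNAs known by an identifier alone overlap the introns and CDS of PCF11, the introns of RBBP6 and the 10 kb regions of XRN2 and SCAF4. MIR130AHG overlaps the introns of CLP1. The 3′ UTR regions of PAPOLA and PAPOLG were made of 15 and 12 separate intervals along the gene, since shorter annotated transcripts end within it. The regions called introns were the gene without its CDS and 3′ UTRs, and so also took in 5′ UTR exons.

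The control libraries were first compared between lines, to give the level from which each gene started. In reads summed over the 4 tables, PCF11 was highest in LNCaP95 at 118 ± 17.0 CPM (SD, n = 3), against 78.4 ± 3.18 CPM in LNCaP and 67.4 ± 5.39 CPM in 22Rv1. The log2 difference was 0.59 ± 0.13 (SE) for LNCaP95 minus LNCaP and −0.81 ± 0.13 for 22Rv1 minus LNCaP95, with adjusted p = 0.0015 and 6.01e-05 (edgeR). The PCF11 3′ UTR was not higher in LNCaP95 controls, at 11.1 to 14.5 CPM against 12.3 to 16.1 in LNCaP and 16.3 to 20.1 in 22Rv1. Its CDS values overlapped, at 340 to 526 CPM against 340 to 384 and 243 to 362 CPM. Neither region was tested between lines. The PCF11 introns were higher in LNCaP95, as given below. Between LNCaP (74.9 to 80.9 CPM) and 22Rv1 (62.0 to 72.8 CPM), the difference in summed PCF11 reads missed the threshold (adjusted p = 0.205, edgeR). XRN2 was highest in 22Rv1, at 263 ± 13.0 CPM against 189 ± 14.8 CPM in LNCaP and 159 ± 9.57 CPM in LNCaP95. Its difference for LNCaP95 minus LNCaP, −0.25 ± 0.12, missed the threshold (adjusted p = 0.103, edgeR). PAPOLG was lowest in LNCaP, higher in 22Rv1 and highest in LNCaP95 (6.78 ± 0.747, 11.3 ± 0.861 and 17.0 ± 3.22 CPM), and every pair of lines differed. The difference between 22Rv1 and LNCaP95 was lost for PAPOLG without replicate 2 of either control group (adjusted p at most 0.109). PABPN1 and SCAF4 were lowest in LNCaP95, at 169 ± 16.0 and 11 ± 1.40 CPM, and differed there from both other lines, between which no difference passed. PAPOLA was higher in LNCaP95 than in LNCaP by 0.40 ± 0.15 (adjusted p = 0.0338), a call lost in 6 of the 9 fits that left out 1 library, among them each of the 3 LNCaP and 3 LNCaP95 controls (largest adjusted p = 0.129). CLP1, RBBP6 and SCAF8 gave no difference between any pair of lines past the threshold. In all, 5 of 9 genes differed between LNCaP95 and LNCaP (43.9% of all genes), 2 of 9 between 22Rv1 and LNCaP (53.1%) and 5 of 9 between 22Rv1 and LNCaP95 (59.3%). These shares were near or below the background.

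Intron reads were then compared between the control libraries of the lines. PCF11 introns held 430, 403 and 386 reads in the 3 LNCaP95 control libraries, 54, 111 and 106 in LNCaP and 31, 43 and 67 in 22Rv1. The level was 195 ± 20.5 CPM in LNCaP95, against 46.6 ± 13.4 CPM in LNCaP and 33.2 ± 3.45 CPM in 22Rv1. The log2 difference was 2.05 ± 0.19 for LNCaP95 minus LNCaP and −2.52 ± 0.20 for 22Rv1 minus LNCaP95 (adjusted p = 1.46e-10 and 2.17e-12, edgeR). PAPOLG introns were also highest in LNCaP95, with 1.5 ± 0.27 and −0.93 ± 0.26 for the same differences (adjusted p = 4.8e-05 and 0.00511). XRN2 introns were lower in LNCaP95 than in LNCaP, at −0.70 ± 0.22, and RBBP6 introns lower in 22Rv1 than in LNCaP95, at −0.70 ± 0.20 (adjusted p = 0.0173 and 0.00508). In this comparison, which was added after the data had been seen, 3 of 7 genes tested differed between LNCaP95 and LNCaP (24.2% of all genes), 3 of 7 between 22Rv1 and LNCaP95 (38.3%) and 0 of 7 between 22Rv1 and LNCaP (31%), with 1, PCF11, at an unadjusted p under 0.05 in the last. DESeq2 was not run on it.

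To determine how loss of CPSF1 changed these genes, the 6 knockdown libraries of a line were compared with its 3 controls in each table. In the 3′ UTR table, PCF11 rose in LNCaP, 8.24% of all genes rising there, and PCF11 and PABPN1 rose and SCAF8 fell in LNCaP95, where 15.2% of genes rose and 15.2% fell. In the intron table, SCAF8 fell in LNCaP (5.62% of all genes fell), and PCF11, RBBP6 and PAPOLG fell in LNCaP95 (10.8%). In the CDS table, PCF11 rose in all 3 lines and PAPOLA in LNCaP and LNCaP95, where 3.8% of genes rose in LNCaP, 7.51% in LNCaP95 and 0.567% in 22Rv1. In 22Rv1, 0 of 9 genes passed in the 3′ UTR table and 0 of 8 in the intron table with edgeR, with 0 at an unadjusted p under 0.05 and 0 with DESeq2 in both. There 1.47% and 4.37% of all genes passed.

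**Figure D3:**
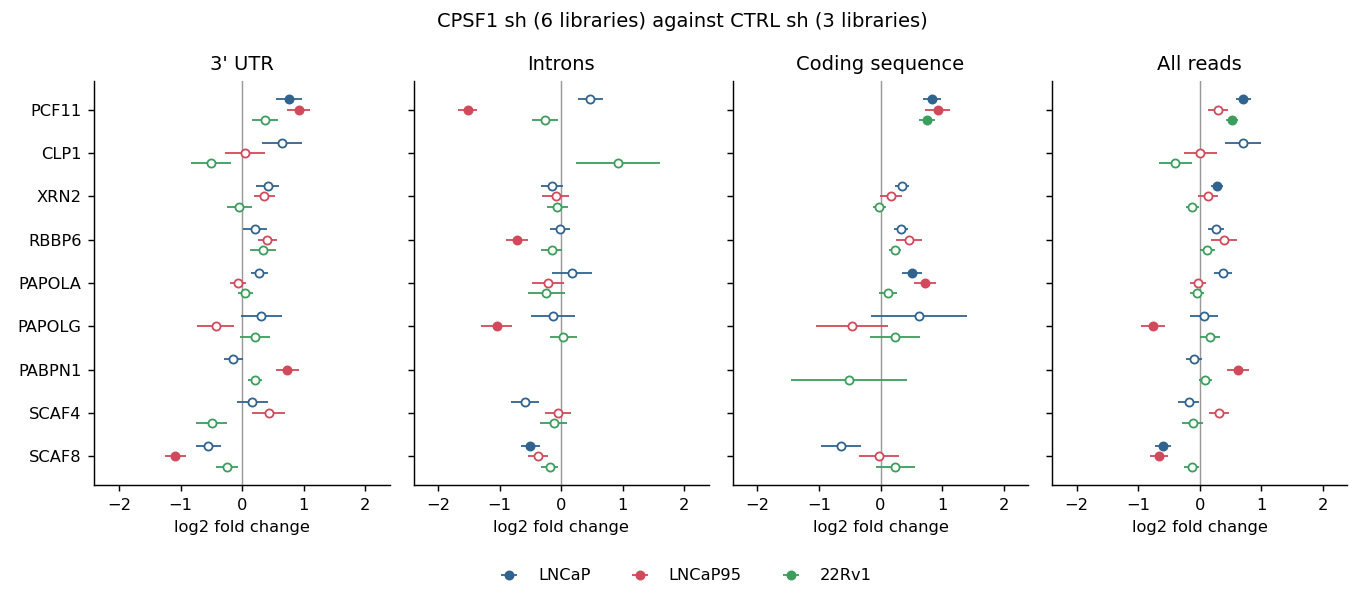
Points give the log2 fold change of CPSF1 sh against CTRL sh for each gene in the 3′ UTR, intron and CDS tables and in all reads, with bars of 1 standard error and 1 colour per line. Filled points passed an adjusted p of 0.05, and genes with a mean at or below 2 CPM are not drawn. The intron value of PCF11 in LNCaP95, at −1.52, is the farthest from 0.

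The intron reads of PCF11 fell in LNCaP95, with a log2 fold change of −1.52 ± 0.15 (SE; adjusted p = 2.16e-08, edgeR). The 3 control libraries held 430, 403 and 386 reads, against 166, 87 and 152 with CPSF1 sh1 and 107, 149 and 116 with CPSF1 sh2. All 6 knockdown libraries lay below all 3 controls, as did 11.2% of all genes tested, and the level went from 195 ± 20.5 CPM (SD, n = 3) to 67.1 ± 11.7 CPM (n = 6). Both shRNAs gave a similar change when fitted alone, at −1.49 with CPSF1 sh1 and −1.54 with CPSF1 sh2. The share of PCF11 reads that lay in introns fell from between 37.7% and 45.0% in controls to between 5.20% and 14.7%. After knockdown, the intron level of PCF11 in LNCaP95 was within the range of the 6 LNCaP knockdown libraries, 42.7 to 86.6 CPM.

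No fall passed the threshold in the other lines. In LNCaP, PCF11 introns held 31.3, 52.3 and 56.2 CPM in controls, 61.7, 86.6 and 73.4 CPM with CPSF1 sh1 and 62.6, 49.6 and 42.7 CPM with CPSF1 sh2, so the groups overlapped. The fitted change was 0.47 ± 0.20 (adjusted p = 0.117), and with CPSF1 sh1 alone it was 0.69 (adjusted p = 0.0113, edgeR). In 22Rv1, controls held 29.3, 35.8 and 34.6 CPM, and the groups overlapped, with a change of −0.26 ± 0.21 (adjusted p = 0.579). The CPSF1 sh1 libraries, at 18.7, 23.9 and 24.8 CPM, all lay below the controls and gave −0.57 alone, while CPSF1 sh2 gave 0.00 (adjusted p = 0.314 and 0.997, edgeR). The difference in effect was tested over the 27 libraries. It was −1.95 ± 0.26 for LNCaP95 minus LNCaP and 1.28 ± 0.28 for 22Rv1 minus LNCaP95 (adjusted p = 7.68e-07 and 0.00166, edgeR), where 3.43% and 3.85% of all genes passed in that direction.

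In the 3′ UTR, PCF11 changed in the other direction. LNCaP95 controls held 14.5, 12.8 and 11.1 CPM and knockdown libraries 25.4, 23.8, 20, 21.4, 27.7 and 26.7 CPM, all above the controls (13.5% of all genes), and the rise was 0.92 ± 0.19 (adjusted p = 0.00118). LNCaP controls held 13.4, 12.3 and 16.1 CPM and knockdown libraries 20.5, 26.1, 18.1, 29.3, 18.8 and 26.4 CPM, again all above (8.86%), and the rise was 0.76 ± 0.21 (adjusted p = 0.0164). The LNCaP call was lost without CTRL sh replicate 1 or 2, with an adjusted p of at most 0.0875 (edgeR). In 22Rv1 the groups overlapped, from 16.3 to 20.1 CPM in controls and 16.0 to 27.8 CPM after knockdown, at 0.37 ± 0.21 (adjusted p = 0.464). Relative to the 3′ UTR of the same gene, PCF11 intron reads fell in LNCaP95, at −2.45 ± 0.24 (adjusted p = 5.57e-07), where the ratio fell in 8.95% of genes. The median change of that ratio over all genes tested was −0.18. No change of the ratio passed in LNCaP, at −0.26 ± 0.31, or in 22Rv1, at −0.63 ± 0.27 (adjusted p = 0.708 and 0.425; 3.69% and 0.422% of all genes passed).

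The CDS reads of PCF11, most of its reads, rose in every line. Controls held 348, 384 and 340 CPM in LNCaP, 340, 526 and 363 CPM in LNCaP95 and 243, 362 and 342 CPM in 22Rv1. Knockdown libraries held 490 to 799 CPM, 651 to 1167 CPM and 490 to 590 CPM, so no line had an overlap between groups, as in 5.47%, 10% and 3.26% of all genes. The rises were 0.84 ± 0.15, 0.93 ± 0.20 and 0.75 ± 0.13 (adjusted p = 0.000616, 0.00315 and 0.00434). Summed over the 4 tables, PCF11 rose in LNCaP by 0.71 ± 0.12 and in 22Rv1 by 0.53 ± 0.10 (adjusted p = 0.000337 and 0.00458; 14% and 4.58% of all genes rose). In LNCaP95 the sum gave 0.30 ± 0.16 (adjusted p = 0.156), with a fall in introns and rises in the 3′ UTR and CDS. With CDS reads left out of the sum, the 22Rv1 call was lost (adjusted p = 0.78). The CDS call in 22Rv1 was lost with library sizes summed over the tables (adjusted p = 0.101). With CPSF1 sh1 alone, both 22Rv1 calls were lost, in the CDS and in all reads (adjusted p = 0.168 and 0.137, edgeR).

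**Figure D4:**
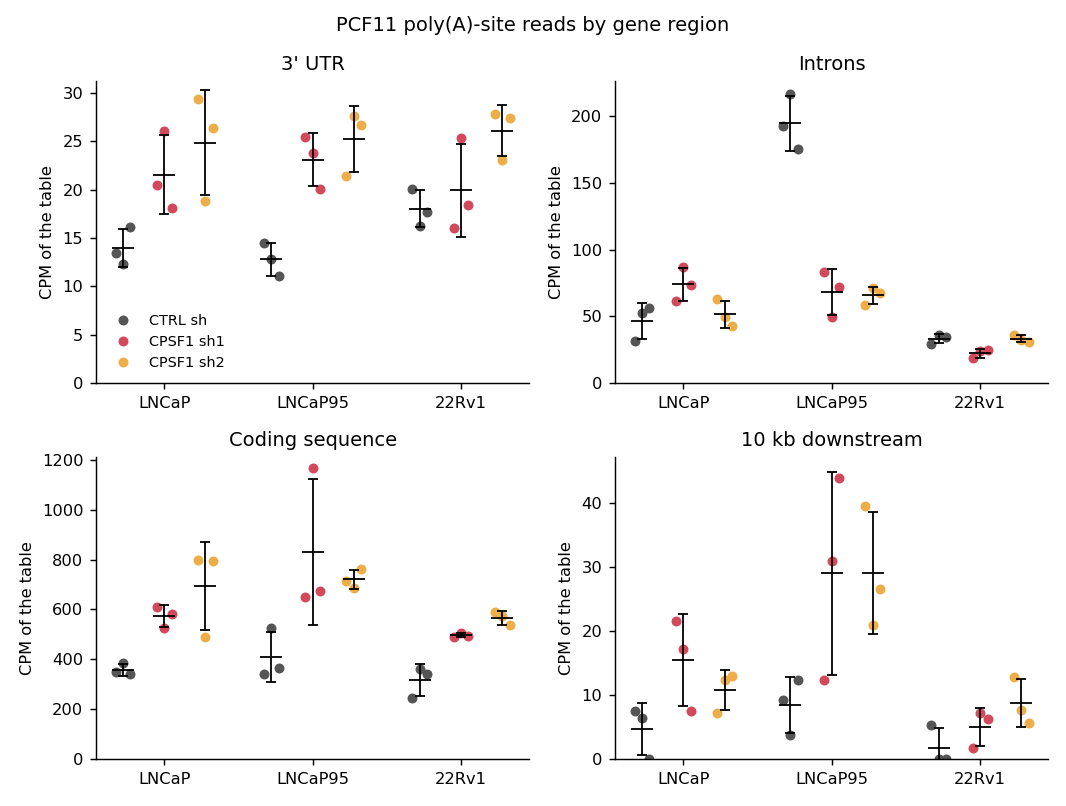
Points are single libraries of PCF11 in CPM of the 3′ UTR, intron, CDS and 10 kb tables, grouped by line and coloured by shRNA, with horizontal bars at the mean and error bars of 1 SD (n = 3). The 3 LNCaP95 controls in the intron panel lie between 175 and 216 CPM, above every other library.

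CLP1, the RNA kinase that partners PCF11 in cleavage factor II, was measured with few reads. Its 3′ UTR held between 9 and 66 reads per library, its CDS 4 reads over all 27 libraries and its introns at most 10 reads in any. For LNCaP, LNCaP95 and 22Rv1 the 3′ UTR changes came to 0.65 ± 0.32, 0.05 ± 0.33 and −0.51 ± 0.33, and none passed (adjusted p = 0.175, 0.926 and 0.527). The standard errors of CLP1 were 0.32 to 0.33 on the log2 scale, against 0.19 to 0.21 for the PCF11 3′ UTR.

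XRN2 passed with edgeR in 1 knockdown comparison, that of all reads in LNCaP. In the CDS, which held the bulk of its counts, all 6 LNCaP knockdown libraries (1089 to 1336 CPM) lay above the controls (896 to 1010 CPM). The same was so for 5.47% of all genes. The CDS change in LNCaP was 0.35 ± 0.11 (adjusted p = 0.0608 with edgeR and 0.00747 with DESeq2). LNCaP95 and 22Rv1 gave 0.17 ± 0.18 and −0.02 ± 0.11. In all reads XRN2 rose in LNCaP by 0.27 ± 0.10 (adjusted p = 0.0449), with controls at 204, 174 and 188 CPM and knockdown libraries at 201, 221, 241, 232, 215 and 223 CPM. The groups overlapped through the library labelled CTRL sh 1, and the call held in only 2 of 9 leave-one-out fits (largest adjusted p = 0.19). It held under 2 of 9 alternatives, was lost with the replicate block (adjusted p = 0.0702), and had its largest adjusted p, 0.338, with CDS reads left out. Its intron reads moved by −0.16 ± 0.18, −0.09 ± 0.22 and −0.06 ± 0.17 in LNCaP, LNCaP95 and 22Rv1.

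RBBP6 fell in introns in LNCaP95. Controls held 76.5, 68.7 and 57.2 CPM, against 46.7, 39.4 and 42.1 CPM with CPSF1 sh1 and 27.4, 38.6 and 49.6 CPM with CPSF1 sh2. All knockdown libraries thus lay below all controls, as did 11.2% of all genes. The change was −0.72 ± 0.18 (adjusted p = 0.00429), against −0.03 ± 0.16 in LNCaP and −0.15 ± 0.17 in 22Rv1, and the differences between lines did not pass (adjusted p = 0.0708 and 0.115). Relative to its 3′ UTR, the intron reads fell, at −1.14 ± 0.26 (adjusted p = 0.00478), a call lost without LNCaP95 CTRL sh replicate 1 (adjusted p = 0.0501) and with CPSF1 sh1 alone (adjusted p = 0.0518). Its CDS reads gave 0.33 ± 0.11, 0.46 ± 0.21 and 0.24 ± 0.10 in the 3 lines, above 0 in each and past the threshold in none with edgeR, while DESeq2 called the LNCaP value (adjusted p = 0.048). In the 3′ UTR of LNCaP95 every knockdown library (25.9 to 31.5 CPM) lay above every control (19.5 to 24.4 CPM), as for 13.5% of all genes. The change was 0.41 ± 0.16 (adjusted p = 0.0533 with edgeR and 0.0444 with DESeq2). The intron reads were 2.00% of RBBP6 reads, and its summed reads in LNCaP95 gave 0.39 ± 0.21 (adjusted p = 0.155).

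The poly(A) polymerases changed in different regions. PAPOLA, the canonical enzyme, rose in the CDS in LNCaP95 by 0.72 ± 0.18 (adjusted p = 0.00647), from 138, 109 and 115 CPM in controls to between 174 and 212 CPM in the 6 knockdown libraries, and the call was lost without CTRL sh replicate 2 (adjusted p = 0.053) and with CPSF1 sh1 alone (adjusted p = 0.103). The rise in LNCaP was 0.51 ± 0.16 (adjusted p = 0.0487), from 153, 127 and 162 CPM to between 175 and 245 CPM, and it held in 3 of 9 leave-one-out fits (largest adjusted p = 0.262). It also held under only 4 of 8 alternatives, being lost with summed library sizes, without a filter, with the replicate block and with CPSF1 sh2 alone (adjusted p = 0.27, 0.0704, 0.0674 and 0.244). The PAPOLA 3′ UTR, with 75.0% of its reads, gave 0.28 ± 0.14, −0.07 ± 0.13 and 0.05 ± 0.12 in LNCaP, LNCaP95 and 22Rv1, and none passed. PAPOLG, a related nuclear poly(A) polymerase, fell in introns in LNCaP95, at −1.05 ± 0.26 (adjusted p = 0.00332). Its 3 controls were close together at 38.4, 39.2 and 40.0 CPM, and the knockdown libraries held 26.6, 6.28 and 18.9 CPM with CPSF1 sh1 and 23, 18.6 and 18.7 CPM with CPSF1 sh2, all below the controls (11.2% of all genes). In all reads PAPOLG fell in LNCaP95, at −0.76 ± 0.19 (adjusted p = 0.00439; 16.8% of all genes fell), from 15.3, 20.7 and 15 CPM to between 7.64 and 11.8 CPM. It gave 0.07 ± 0.23 in LNCaP and 0.17 ± 0.16 in 22Rv1, and the differences in intron effect between lines did not pass (adjusted p = 0.217 and 0.0686).

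PABPN1 rose in the 3′ UTR in LNCaP95 by 0.74 ± 0.19 (adjusted p = 0.00691). Controls held 267, 259 and 325 CPM, against 295, 666 and 442 CPM with CPSF1 sh1 and 540, 438 and 450 CPM with CPSF1 sh2. The groups overlapped through CPSF1 sh1 replicate 1, which lay below the highest control, and with CPSF1 sh1 alone the call was lost (adjusted p = 0.0517, edgeR). The change was −0.15 ± 0.15 in LNCaP and 0.21 ± 0.11 in 22Rv1, and the effect in LNCaP95 exceeded that in LNCaP by 0.89 ± 0.23 (adjusted p = 0.013), where 5.17% of genes passed in that direction. Without LNCaP95 CTRL sh replicate 2 the difference had an adjusted p of 0.0516. In all reads PABPN1 rose in LNCaP95 by 0.62 ± 0.17 (adjusted p = 0.00961), where 17.6% of all genes rose, and without CTRL sh replicate 1 the adjusted p was 0.0554. CPSF1 sh1 replicate 2 of LNCaP95, the highest for PABPN1, was also the highest of that line for PCF11 and RBBP6 in the CDS, at 1167 and 7481 CPM, and the lowest for PAPOLG in introns. Without this library the calls of PABPN1, PCF11 and PAPOLG in these tables remained.

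SCAF8 was the only 1 of the 9 genes to fall in all reads in more than 1 line. The changes were −0.59 ± 0.13 in LNCaP and −0.66 ± 0.14 in LNCaP95 (adjusted p = 0.00216 and 0.00119, where 13.5% and 16.8% of all genes fell), against −0.13 ± 0.12 in 22Rv1 (adjusted p = 0.564). In LNCaP95 the 3′ UTR fell, at −1.09 ± 0.17 (adjusted p = 0.00014), from 27.9, 28.6 and 30.2 CPM in controls to 14.7, 16.3 and 12.3 CPM with CPSF1 sh1 and 14.9, 11.4 and 12 CPM with CPSF1 sh2, all below the controls (14.3% of all genes). In LNCaP the introns fell, at −0.50 ± 0.15 (adjusted p = 0.0265), from 103, 106 and 116 CPM to between 55.0 and 100 CPM, also all below (9.03%), a call not made without any 1 of the 3 controls or CPSF1 sh2 replicate 1 (largest adjusted p = 0.132). With CPSF1 sh1 alone this intron call was also lost (adjusted p = 0.201), its libraries being at 100, 84.9 and 75.9 CPM. The LNCaP 3′ UTR and the LNCaP95 introns of SCAF8 had an unadjusted p under 0.05 but did not pass. Nor did the differences in effect for LNCaP95 minus LNCaP, at −0.53 ± 0.27 in the 3′ UTR and 0.16 ± 0.22 in introns (adjusted p = 0.226 and 0.741, edgeR). The 3′ UTR effect in 22Rv1, −0.24 ± 0.18, exceeded that in LNCaP95 by 0.86 ± 0.27 (adjusted p = 0.0375, with 5.31% of genes past the threshold in that direction), and it held in 17 of 27 leave-one-out fits (largest adjusted p = 0.097) and was lost with summed library sizes (adjusted p = 0.0548).

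SCAF4, the close relative of SCAF8, did not pass in the 3′ UTR, intron or summed reads of any line. Its 3′ UTR gave 0.17 ± 0.25 in LNCaP, 0.43 ± 0.27 in LNCaP95 and −0.49 ± 0.25 in 22Rv1. Its introns gave −0.59 ± 0.23 in LNCaP (adjusted p = 0.0769), with controls at 32.4, 49.0 and 35.5 CPM and knockdown libraries between 18.9 and 39.3 CPM, and −0.06 ± 0.21 and −0.12 ± 0.22 in LNCaP95 and 22Rv1.

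**Figure D5:**
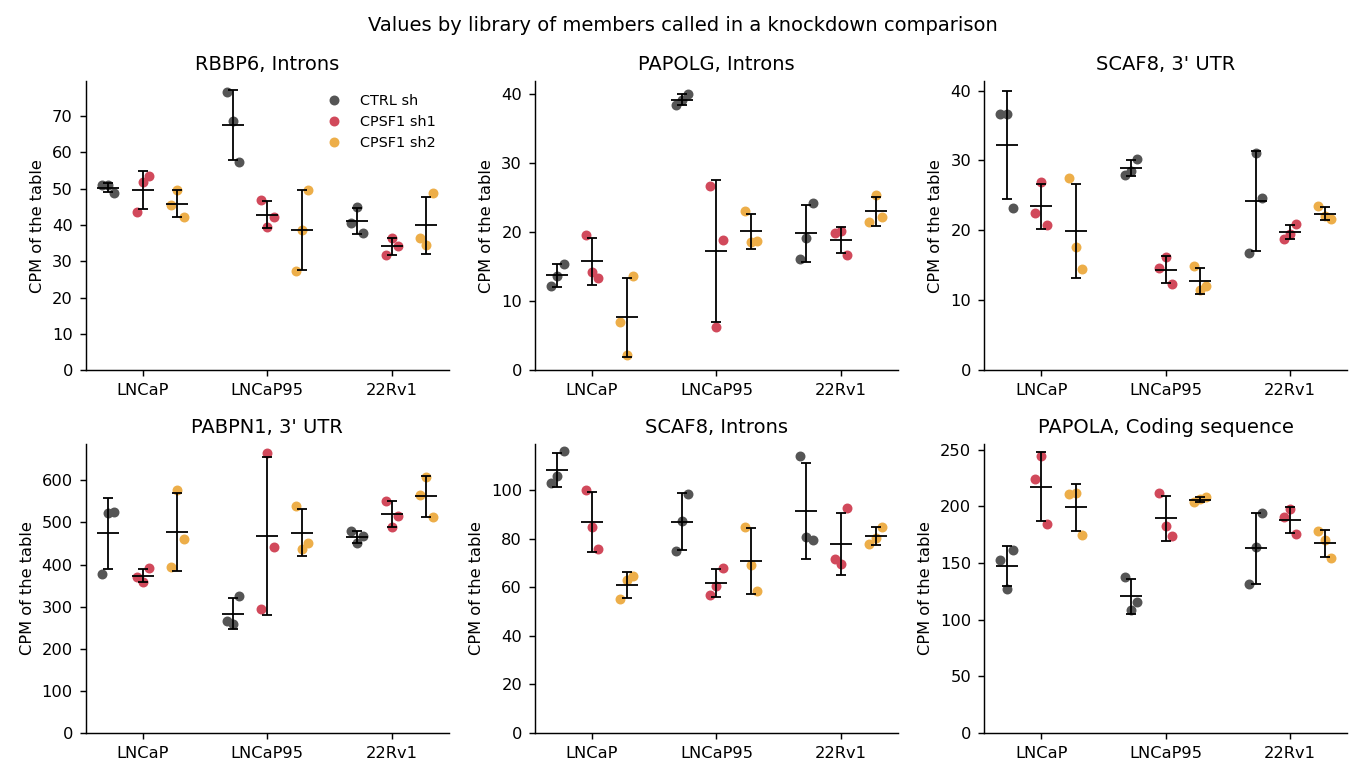
Points are single libraries in CPM for 6 gene and table pairs with a call in at least 1 line, grouped by line and coloured by shRNA, with horizontal bars at the mean and error bars of 1 SD (n = 3). RBBP6 and PAPOLG introns and the SCAF8 3′ UTR separate controls from knockdown libraries in LNCaP95, with PAPOLG controls between 38.4 and 40.0 CPM. Of all genes in LNCaP95, 11.2% in introns and 14.3% in the 3′ UTR had all knockdown libraries below all controls.

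Beyond the gene ends the 9 genes had few reads. In LNCaP95, 3 of 8 genes tested rose in the 10 kb table, where 17.6% of all genes rose, and 0 of 7 and 0 of 8 passed in LNCaP and 22Rv1 with edgeR, with 0 at an unadjusted p under 0.05 and 0 with DESeq2 in both. There 14.7% and 9.99% of all genes passed. SCAF4 rose by 1.82 ± 0.55 (adjusted p = 0.00798), from 3, 2 and 5 reads in controls to 24, 14, 25, 18, 21 and 27 reads. In CPM all 6 knockdown libraries lay above the controls for SCAF4 and RBBP6, as for 18.3% of all genes. RBBP6 rose by 2.24 ± 0.78 (adjusted p = 0.0217), from 0, 4 and 0 reads to between 10 and 16 reads. PCF11 rose by 1.65 ± 0.63 (adjusted p = 0.0389), from 3, 1 and 4 reads to between 6 and 23 reads, with overlapping CPM, and DESeq2 did not call it (adjusted p = 0.0571). Leaving out 1 library ended the PCF11 call in 5 of 9 fits and the RBBP6 call in 2 of 9. With CPSF1 sh1 alone all 3 calls were lost (adjusted p = 0.139, 0.0603 and 0.0518 for PCF11, RBBP6 and SCAF4, edgeR), and with CPSF1 sh2 alone those of PCF11 and RBBP6 (adjusted p = 0.081 and 0.0755). The fits across all genes had medians of 0.13, 0.22 and 0.19 in LNCaP, LNCaP95 and 22Rv1. Relative to the 3′ UTR of the same gene, 0 genes passed in any line with edgeR (7, 8 and 8 tested), with 3 at an unadjusted p under 0.05 in LNCaP95 (RBBP6, PAPOLG and SCAF4) and 0 in the other lines. With library sizes summed over the tables, 5 values passed over the 3 lines. DESeq2 was not run on this ratio, and 10.3%, 28% and 7.45% of all genes passed in LNCaP, LNCaP95 and 22Rv1. In simulated data, the ratio test in LNCaP95 recovered 5.56% of 2-fold changes.

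The genes tested were also described together. In introns of LNCaP95 the median change was −0.38 over 7 genes, all 7 below 0, against 0.00 over all genes. It was −0.14 in both LNCaP and 22Rv1, over 7 and 8 genes. In the CDS table the medians were 0.43, 0.32 and 0.24 in LNCaP, LNCaP95 and 22Rv1 over 6, 6 and 7 genes, against −0.01, 0.04 and 0.02. In the 3′ UTR they were 0.28, 0.36 and 0.05 over 9 genes, against 0.02, 0.01 and −0.01.

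To determine how far the 2 shRNAs differed on these genes, CPSF1 sh2 was compared with CPSF1 sh1 in each line. With edgeR, 0 members passed in the 3′ UTR, intron and 10 kb tables of any line, and no other tool was run. In simulated data, this test in LNCaP95 recovered 63.6%, 41.4% and 11.7% of 2-fold changes in these tables. Of all genes, 0.0363%, 0% and 0.0522% passed in the 3′ UTR table of LNCaP, LNCaP95 and 22Rv1, 0.118%, 0% and 0.154% in introns and 0.119%, 0.00676% and 0.174% in the 10 kb table. At an unadjusted p under 0.05 there were 9 of 72 values. The lowest came from PAPOLA in the 10 kb table of 22Rv1, at 1.67 ± 0.52 (adjusted p = 0.185, edgeR), and SCAF8 introns of LNCaP, at −0.52 ± 0.17 (adjusted p = 0.423). For PCF11 introns in LNCaP95 the difference was −0.05 ± 0.20, against −0.52 ± 0.21 in LNCaP and 0.57 ± 0.19 in 22Rv1 (adjusted p = 0.999, 0.555 and 0.367).

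Other genes of the pathway were counted by list in all reads. Of 14 core cleavage and polyadenylation genes, 2 rose and 2 fell in LNCaP, 4 rose and 2 fell in LNCaP95 and 0 rose and 1 fell in 22Rv1. CPSF1 was among those that fell in each line. CSTF3, a subunit of the cleavage stimulation factor, rose by 0.82 and 0.60 in LNCaP and LNCaP95 (adjusted p = 0.000352 and 0.00157), and CSTF2T, a paralogue of another subunit, by 0.79 and 0.74 (adjusted p = 0.00974 and 0.00941). The CSTF3 10 kb region rose by 3.99 and 5.05 in LNCaP and LNCaP95, and also by 4.83 in 22Rv1 (adjusted p = 1.08e-09, edgeR, for 22Rv1). Its 3′ UTR gave 0.57 and 0.07 in LNCaP and LNCaP95 (adjusted p = 0.0474 and 0.787). The CSTF2T 10 kb region rose by 3.03 in LNCaP and 1.58 in 22Rv1 (adjusted p = 1.99e-05 and 0.00353, edgeR). In LNCaP95 it gave 0.87 and did not pass (adjusted p = 0.0822). The CSTF2T 3′ UTR passed in none of the lines. Of 6 factors that restrain intronic polyadenylation, CDK13 alone passed, in LNCaP only, at −0.31 (adjusted p = 0.0451). Its intron reads and those of SNRPA, a U1 snRNP protein, fell in LNCaP95, at −0.45 and −0.65 (adjusted p = 0.0255 and 0.0403), while CDK12 introns gave 0.41 (adjusted p = 0.061). Of 9 CTD-binding factors and CTD phosphatases, 0 rose and 1 fell in LNCaP, 1 rose and 3 fell in LNCaP95, and 0 passed in 22Rv1. RPRD2, a CTD-binding protein, fell in LNCaP and LNCaP95, at −0.76 and −0.32 (adjusted p = 1.02e-05 and 0.0484). Of 10 nuclear poly(A) tail and decay genes, 2 rose and 1 fell in LNCaP, 1 rose and 1 fell in LNCaP95, and 0 passed in 22Rv1. ZC3H14, a nuclear poly(A)-binding protein, rose by 0.46 and 0.61 in LNCaP and LNCaP95 (adjusted p = 0.00305 and 0.00184). Over all genes tested, 27.5%, 34.3% and 7.57% passed in the same order of lines (LNCaP, LNCaP95, 22Rv1).

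The pattern of PCF11 introns over the 9 groups was compared with the intron reads of 12467 genes. The 3 genes with the highest Pearson r over the 9 group means of log2 CPM were GTF2H1, PNCK and TBC1D20, at 0.979, 0.979 and 0.976. The group means share libraries and depth, so the values are a description. The choice by r favours genes that, like PCF11, are highest in the LNCaP95 controls, as each of the 3 was. TBC1D20 introns were at 62.3 CPM there, against 26.8 and 25.3 CPM after knockdown in that line and 15.4 to 30.9 CPM in the other groups.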

How the data were processed

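PAC-seq read counts of 27 libraries were analysed, 3 per shRNA in each of 3 lines. The authors trimmed poly(A) tails with their DPAC pipeline and mapped reads to hg19 (HISAT2 2.1.0 and Subread 2.0.3 are named in the submitters' processing notes). The deposited counts are whole reads per gene, not normalized, assigned by the 3′-most base on the gene's strand to 4 tables: 3′ UTRs extended by 300 bases, CDS, introns, and the 10 kb downstream without exons of that strand. PCR copies cannot be told apart. The site caller drops sites with over 12 A in 20 bases. Whether this was applied to these tables is not given in the sources used here.

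Each table was fitted whole, per line, with the quasi-likelihood test of edgeR 4.0.16 (R 4.3.3), after TMM scaling and a filter of a mean above 2 CPM, at a Benjamini-Hochberg adjusted p of 0.05. Differences between lines, between shRNAs, and between the intron or 10 kb and 3′ UTR tables were fitted as model terms. The standard error was the fold change over the root of the F statistic. Printed CPM were scaled over the 27 libraries. DESeq2 1.42.0, other scaling and filters, each shRNA alone, a replicate block and leaving out each library were alternatives. Replicate numbers were not taken to pair libraries: at most 2 of 9 same-numbered pairs per line correlated above 0.1, and the lowest r was −0.217. The highest, 0.354, was in 22Rv1, where CTRL sh and CPSF1 sh1 libraries of replicates 1, 2 and 3 gave 0.354, 0.217 and 0.0763. Replicates differed beyond sampling noise (chi-square per degree of freedom 2.706 or more in 27 pairs). The tests were checked on simulated data. In LNCaP95, knockdown fits recovered 74.2%, 54.8% and 12.0% of 2-fold changes in the 3′ UTR, intron and 10 kb tables. The intron and 10 kb ratios recovered 28.6% and 5.56%. Differences in effect for LNCaP95 minus LNCaP recovered 46.9%, 41% and 3.06% in the 3′ UTR, intron and 10 kb tables. A value that did not pass is thus no sign that a change was absent. Sequences and windows were read from GRCh37 with Python 3.11.15 and pysam 0.24.0.

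Genes named were the 9 members, the 3 genes most like PCF11 in introns, and genes from the 3 of each pathway list with the largest absolute mean change over the lines in all reads. The members and lists were chosen with earlier results of these data known. Of the columns of the tables, 0 belonged to no sample.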

Additional observations from a re-analysis of the deposited data

Results flagged for a closer look

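The effect of CPSF1 knockdown on PCF11 intron reads differed between lines by a direct test of the difference over all 27 libraries. The log2 difference was −1.95 ± 0.26 (SE) for LNCaP95 minus LNCaP and 1.28 ± 0.28 for 22Rv1 minus LNCaP95 (adjusted p = 7.68e-07 and 0.00166, edgeR), and both calls held in 27 of 27 fits that left out 1 library.

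The effect on the PABPN1 3′ UTR was 0.89 ± 0.23 higher in LNCaP95 than in LNCaP (adjusted p = 0.013), and the call held in 26 of 27 such fits. The effect on the SCAF8 3′ UTR was 0.86 ± 0.27 higher in 22Rv1 than in LNCaP95 (adjusted p = 0.0375), and the call held in 17 of 27 fits and was lost with library sizes summed over the tables (adjusted p = 0.0548).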

How the results depend on the processing

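Calls of the 9 genes in 3 lines numbered 4 in the 3′ UTR, 4 in introns, 5 in the CDS, 3 in the 10 kb table, 7 in all reads, 2 for the intron ratio, 0 for the 10 kb ratio, 4 for differences in effect and 12 between control libraries. With library sizes summed over the tables there were 3 in the CDS, 5 in the 10 kb table and 5 for the 10 kb ratio. With CPSF1 sh1 alone there were 3 in the CDS, 0 in the 10 kb table and 1 for the intron ratio. Without a filter the 10 kb ratio gave 1. In the intron table, an alternative chosen after seeing the data, control libraries gave 6. The causes were not tested. Leaving out 1 library gave 3 to 5 in the 3′ UTR, 3 to 5 in introns, 4 to 6 in the CDS, 1 to 3 in the 10 kb table, 6 to 8 in all reads, 1 to 3 for the intron ratio, 0 to 1 for the 10 kb ratio, 3 to 5 for differences in effect, 11 to 15 between controls and 0 between shRNAs. Without LNCaP95 CTRL sh replicate 1 the 10 kb count was 1 and the intron ratio count 1. The 10 kb ratio count was 1 without LNCaP95 CTRL sh replicate 2 or 3 or CPSF1 sh1 replicate 2.

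With the replicate block the counts were 4, 4, 4, 3, 6, 2, 0, 4, 13 and, between shRNAs, 0, in the order above. Same-numbered libraries were not paired by the labels, and 2, 1 and 4 of 9 libraries correlated best with their own number in LNCaP, LNCaP95 and 22Rv1. The intron call of PCF11 in LNCaP95 held in 9 of 9 fits that left out 1 library and under 8 of 8 alternatives. Low read numbers limit CLP1 and the 10 kb table most.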
